A study of Mus musculus with 28 samples.

Results

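The comparison described here sets all 18 libraries from CamkIIδC transgenic mice against the 10 libraries from wildtype littermates, 28 libraries in all, with the drug given to the transgenic mice left out of the grouping. The 18 were taken by their titles as transgenic vehicle (9) or transgenic vorinostat (9), and the question asked of each gene was whether it was shifted the same way in both transgenic groups. RNA was polyadenylated RNA of microdissected hippocampal CA1, the field that relays hippocampal output, from mice 3 months old that had taken vehicle or vorinostat, an inhibitor of histone deacetylases, with their drinking water for 4 weeks. All wildtype mice took vehicle, so an effect of the drug without the transgene cannot be told apart from the genotype in the vorinostat group.

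CamkIIδC is a cytosolic splice form of the delta chain of calcium and calmodulin dependent protein kinase II. As background, mice that make it from a heart muscle promoter develop heart failure, and they are used to ask what a failing heart does to other organs. Vorinostat blocks a number of zinc-dependent histone deacetylases, enzymes that take acetyl groups off histone tails. The transgene is not made in brain by such a promoter, so Camk2d, the endogenous gene of the delta chain, does not check the genotype labels here.

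Mice of both sexes were used, and the labels do not say which library came from which sex. Xist, the transcript that silences an X chromosome in females, was above 100 CPM in 6 of 10 wildtype, 3 of 9 transgenic vehicle and 5 of 9 vorinostat libraries. CPM is a gene's count scaled to a library total of 1000000 counts after TMM scaling. For Xist and for summed hemoglobin the library total was used without TMM scaling. The labels do not state that every library is a separate mouse, so p-values describe the spread between libraries, part of which may be technical. Totals were 20230085 to 33191857 counts per library and did not differ by genotype past the threshold (permutation p = 0.939). Wildtype 2 and vorinostat 6, 7 and 9 had a mitochondrial share of counts of at least 6.39%, against at most 4.11% in the other 24. The mean share was 4.26% ± 1.27 in transgenic (SD, n = 18) and 4.00% ± 0.915 in wildtype libraries (SD, n = 10; permutation p = 0.562). The difference in share was -0.00255 percentage points without the 4. Of the CA1 pyramidal markers 8 of 8 were measured, with a summed level of 1306 to 1789 CPM in wildtype, 1272 to 1888 in transgenic vehicle and 1122 to 1712 in vorinostat libraries. In bulk tissue, fewer cells of a type and less RNA per cell cannot be told apart.

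The 3 promoters printed here are shown because their genes, Adm, Slc15a2 and Zfp738, lead the differences described later. They are taken from RefSeq on GRCm38.p6, each up to 250 bases before the annotated start, read 5′ to 3′ along the gene. Capitals mark each match, on either strand, to one of the motifs searched: ACGTG (core of the hypoxia response element), CACGTG (E-box, which contains ACGTG), TGACGTCA (cyclic AMP response element), CCAAT (a common box of promoters) and GGGCGG (GC box). Adm lies at chr7:110627407-110627656, plus strand, Slc15a2 at chr16:36784963-36785212, minus strand and Zfp738 at chr13:67683552-67683762, minus strand. From Zfp738 the 39 bases next to the start were left out because GENCODE has an exon there, and the rest lies within the span of the longer GENCODE gene model.
Adm: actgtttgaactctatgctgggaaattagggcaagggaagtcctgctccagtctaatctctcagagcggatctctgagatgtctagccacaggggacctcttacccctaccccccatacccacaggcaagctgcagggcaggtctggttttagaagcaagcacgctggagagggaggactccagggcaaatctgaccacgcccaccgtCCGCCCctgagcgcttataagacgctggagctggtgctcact
Slc15a2: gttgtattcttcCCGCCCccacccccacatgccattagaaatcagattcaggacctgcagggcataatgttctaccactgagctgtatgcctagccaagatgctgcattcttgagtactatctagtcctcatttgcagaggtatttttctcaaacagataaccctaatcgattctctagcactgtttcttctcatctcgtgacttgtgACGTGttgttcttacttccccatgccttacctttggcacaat
Zfp738: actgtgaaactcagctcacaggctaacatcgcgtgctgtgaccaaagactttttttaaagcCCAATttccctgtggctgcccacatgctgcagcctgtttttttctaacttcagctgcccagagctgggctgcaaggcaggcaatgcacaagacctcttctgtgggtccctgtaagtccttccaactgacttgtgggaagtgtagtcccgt
The Adm window held GGGCGG at -42 from the start and none of the other motifs. The Slc15a2 window held ACGTG at -42 and GGGCGG at -238, and the Zfp738 window held CCAAT at -189. Among all 32851 RefSeq promoter windows of 250 bases, GGGCGG was in 32.7%, CCAAT in 33.8%, ACGTG in 16.6%, CACGTG in 6.02% and TGACGTCA in 1.55%. A RefSeq window was found for 19 of the 25 genes chosen by the size of p. A match is a string of letters and not a binding site.

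Camk2d (ENSMUSG00000053819, chromosome 3, 126596302 to 126846326, plus strand) was at 39.7, 71.6 and 143 CPM (lowest, median, highest) in wildtype libraries. It was at 42.3, 53.6 and 105 CPM in transgenic vehicle and at 44.9, 71.2 and 115 CPM in vorinostat libraries. Every transgenic value lay inside the wildtype range. The log2 fold change, transgenic over wildtype with both groups given the same weight, was -0.22 (SE 0.194, 95% interval -0.62 to 0.18), and it was -0.08 without wildtype 1.

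Across the transcriptome the transgenic and wildtype libraries differed little. Of 17009 genes tested, 0 passed an adjusted p of 0.05 by edgeR's quasi-likelihood test (0%), and the smallest adjusted p was 0.979. At an unadjusted p under 0.05 there were 485 genes (2.85%), 263 of them higher (1.55%) and 222 lower (1.31%) in transgenic libraries, where 850 are due by chance. By DESeq2 the count was 0 (499 genes before adjustment), and by limma voom 0 (509). Log2 fold changes smaller than 0.5 in size made up 99.7% of genes, and the 95% interval of the change stayed within -0.5 and 0.5 for 15497 genes (91.1%) and within -1 and 1 for 16929 (99.5%). No gene had all 18 transgenic libraries beyond the wildtype range (0%), while 7 had all 18 above the wildtype median (0.0412%) and 8 had all 18 below it (0.0470%).

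The count depended on the table used. The authors also deposited values adjusted by a mixed linear model. No source used here gives its terms or says whether the groups were protected in it. On that table limma called 1281 of 18014 genes, 944 higher and 337 lower. Of the 23 genes named below for their p, 17 were among them, and 23 of 23 had the direction they have in the counts. Those genes were picked for small p in counts of the same libraries, so this agreement is no separate support for them.

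Genes shifted the same way in both transgenic groups were looked for with the larger of the p-values of the groups against wildtype. Both contrasts share the 10 wildtype libraries, so a shift in those moves both, and the share of genes with the same sign is a count from which nothing is read. Of 17009 genes, 8781 had the same sign in both (51.6%), 4545 higher (26.7%) and 4236 lower (24.9%). By the larger edgeR p, 0 passed adjustment (0%; 9 on the authors' adjusted values) and 50 were under 0.05 unadjusted (0.294%), 28 higher and 22 lower. The smallest larger p was 0.00491, for Gm25612. Taken alone, transgenic vehicle against wildtype had 227 genes at an unadjusted p under 0.05 (1.33%) and vorinostat against wildtype 2141 (12.6%), with 0 called in each (0%). Vorinostat against transgenic vehicle, which does not use the wildtype libraries, had 2449 (14.4%) and 0 called (0%) by edgeR, with a smallest adjusted p of 0.345, while DESeq2 called 1.

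**Figure D1:**
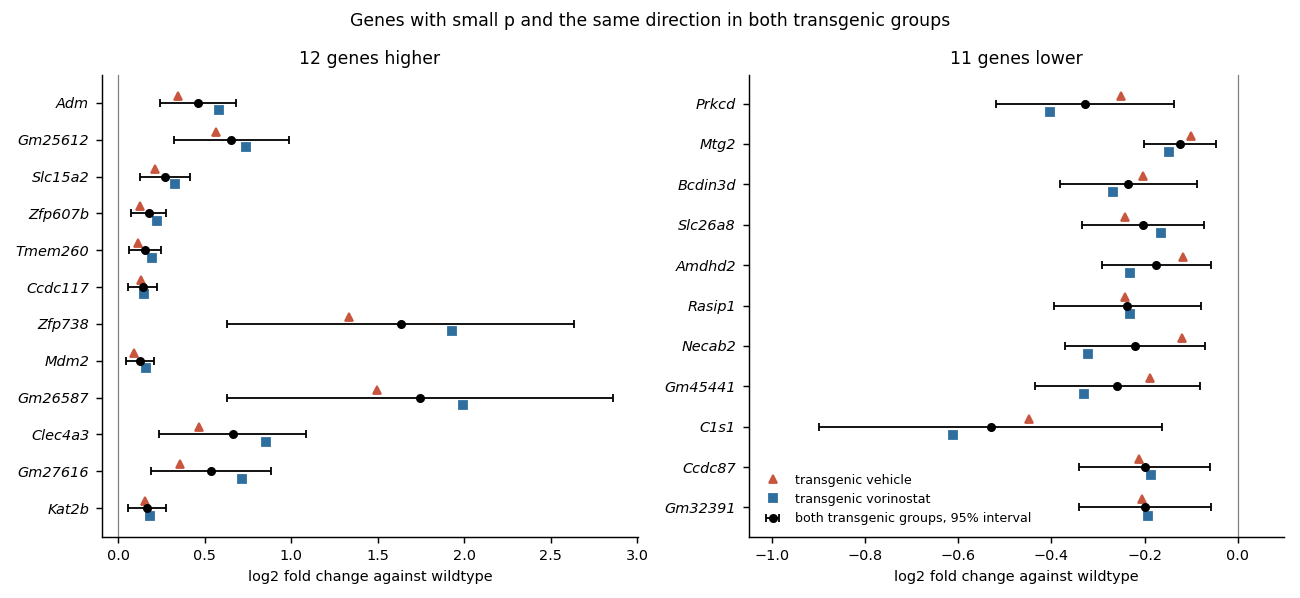
Log2 fold change against wildtype (horizontal axis) of 12 genes higher and 11 genes lower with small p and the same sign in both transgenic groups; triangles are transgenic vehicle, squares vorinostat, and circles both groups at equal weight with the 95% interval. The square lies farther from 0 than the triangle for 12 of the higher and 7 of the lower genes, a share not counted over all genes. Zfp738 and Gm26587 have the widest intervals.

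Among genes of the same sign in both groups, 12 higher and 11 lower ones with small p are described next. These genes were picked for their p, their adjusted p was 0.979 throughout, and their sizes are descriptions. In the plot of their fold changes, the vorinostat group lay farther from wildtype than the vehicle group for 12 of the 12 higher and 7 of the 11 lower genes. The same share was not counted over all tested genes, so this is not read as a trait of these 23. Among all genes, 12.6% were at an unadjusted edgeR p under 0.05 for vorinostat against wildtype and 1.33% for transgenic vehicle. Between the transgenic groups themselves, 1 of the 23 had an unadjusted p under 0.05, Necab2, which was lower with vorinostat.

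Adm encodes adrenomedullin, a peptide that widens blood vessels and is induced by low oxygen, and had the smallest p of all genes (0.000160). The gene (ENSMUSG00000030790, chromosome 7, 110627661 to 110629820, plus strand) was at 0.754, 1.06 and 1.66 CPM in wildtype libraries. It was at 1.16, 1.27 and 1.84 CPM in transgenic vehicle and at 1.46, 1.60 and 1.98 CPM in vorinostat libraries. All 18 transgenic libraries lay above the wildtype median, and 4 lay above the highest wildtype library, so the groups overlapped. The log2 fold change was 0.46 (SE 0.107, 95% interval 0.24 to 0.68, edgeR adjusted p = 0.979). It was 0.34 in transgenic vehicle and 0.58 in vorinostat, and the groups differed from each other by 0.23 (SE 0.122). With 1 library left out in turn it ranged from 0.419 to 0.566. On the authors' adjusted values the difference was 0.29 in that table's log units (limma adjusted p = 0.000612). At about 1 to 2 CPM the gene is near the low end of what was tested. The antisense gene Gm28863 overlaps it, and the reads carry no strand.

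Slc15a2 encodes the proton-coupled transporter PEPT2, which takes up short peptides and is found in astrocytes and choroid plexus. The gene (ENSMUSG00000022899, chromosome 16, 36750177 to 36784962, minus strand) was at 28.3, 34.3 and 40.6 CPM in wildtype, at 35.3, 39.3 and 42.2 in transgenic vehicle and at 35.2, 38.9 and 53.0 in vorinostat libraries. Here too all 18 transgenic libraries were above the wildtype median, and 7 were above the wildtype maximum. Transgenic libraries differed by 0.27 on the log2 scale (SE 0.0700, 95% interval 0.13 to 0.41), with 0.21 in transgenic vehicle and 0.33 in vorinostat. Without the 4 libraries of high mitochondrial share it was 0.22. Astrocyte markers as a list had a median of 0.01, with 6 of 9 members above 0.

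**Figure D2:**
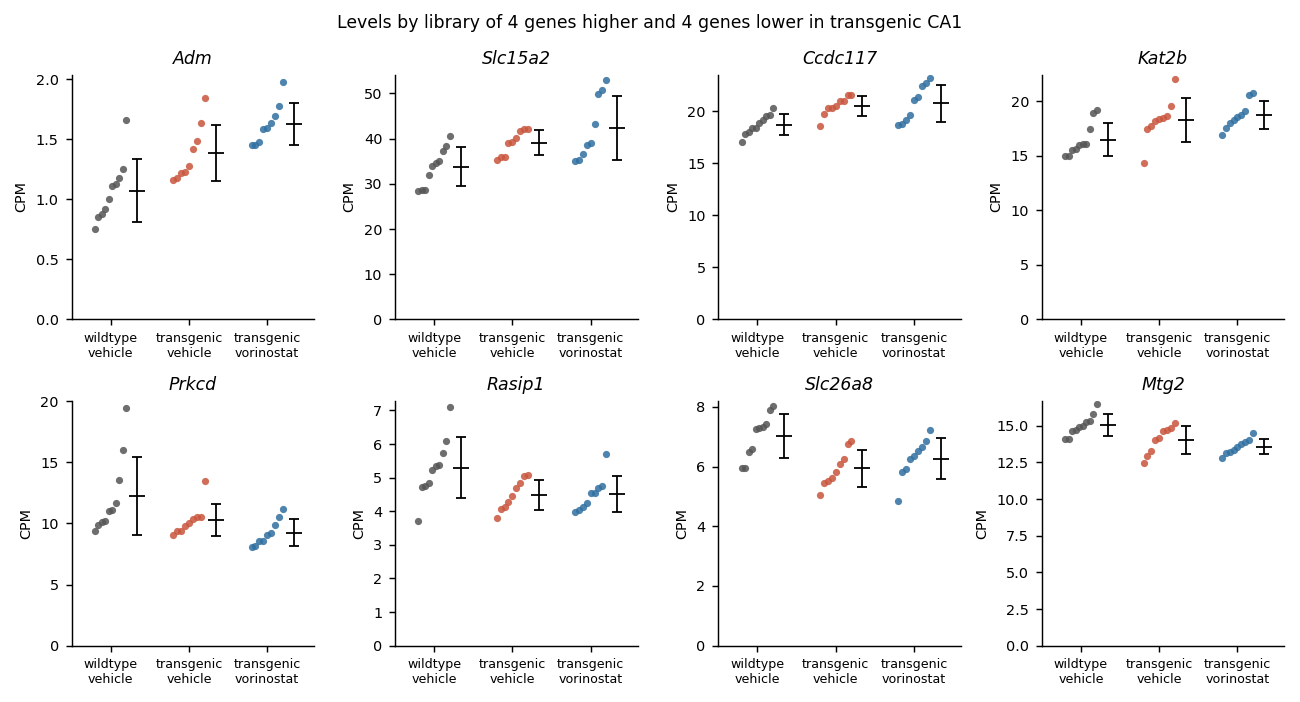
Scaled counts (CPM) by library (vertical axis, linear from 0) of 4 genes higher and 4 lower, by group (horizontal axis); each point is a library and bars are the mean ± SD of 10, 9 and 9 libraries. Adm and Slc15a2 have every transgenic point above the wildtype median and Slc26a8 has every one below it, and in all 8 panels the groups overlap.

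Most other protein-coding genes on the higher side differed by smaller amounts. Kat2b, a histone acetyltransferase also called PCAF, was at 14.9, 16.0 and 19.2 CPM in wildtype, at 14.3, 18.4 and 22 in transgenic vehicle and at 16.9, 18.5 and 20.7 in vorinostat libraries. Relative to wildtype it was at 0.17 (log2, SE 0.0539), with 0.15 in transgenic vehicle and 0.18 in vorinostat, and 17 of 18 transgenic libraries lay above the wildtype median. With surrogate variables as covariates it was 0.09. Mdm2, the ubiquitin ligase that degrades p53, was at 44.9, 46.8 and 49.9 CPM in wildtype, at 45.7, 50.4 and 53.1 in transgenic vehicle and at 47.0, 51.7 and 64.9 in vorinostat libraries. This gave a log2 fold change of 0.13 (SE 0.0392), and 14 of the 18 libraries exceeded the highest wildtype value. Ccdc117 was at 17.1, 18.7 and 20.3 CPM in wildtype, at 18.6, 20.5 and 21.6 in transgenic vehicle and at 18.7, 21.1 and 23.2 in vorinostat libraries. Its log2 fold change of 0.14 (SE 0.0409) was nearly the same in both groups, 0.13 and 0.15. Tmem260 and the zinc finger gene Zfp607b were at 0.15 (SE 0.0448) and 0.17 (SE 0.0502). Clec4a3, a lectin receptor of myeloid cells, was at 0.66 (SE 0.209), from 0.151 to 0.539 CPM in wildtype and 0.262 to 1.08 CPM in transgenic libraries.

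Gm25612 is a small nucleolar RNA gene (ENSMUSG00000077202, chromosome 1, 134505338 to 134505463, plus strand) within Rabif. It was at 0.533, 0.693 and 1.12 CPM in wildtype, at 0.581, 1.15 and 1.81 in transgenic vehicle and at 0.885, 1.20 and 1.97 in vorinostat libraries. As a log2 fold change this was 0.65 (SE 0.163), with 0.57 and 0.74 in the groups. Gm27616, a microRNA gene within Prrc2c, was at 0.53 (SE 0.170). Reads over these genes cannot be told apart from those of an unspliced host transcript. Gm15601, antisense to Ddhd1 and among the 5 higher genes with the smallest larger p, was at 0.20 (SE 0.0668) in all transgenic, 0.20 in vehicle and 0.20 in vorinostat libraries.

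Zfp738, a KRAB zinc finger gene of the kind that silences repeated DNA, had one of the widest differences, and its level split the libraries into a low and a high set. The gene (ENSMUSG00000048280, chromosome 13, 67658685 to 67687071, minus strand) was at 0.444, 0.845 and 9.58 CPM in wildtype, at 0.271, 5.83 and 12.6 in transgenic vehicle and at 0.770, 10.5 and 15.1 in vorinostat libraries. No library lay between 1.08 and 4.54 CPM. Below 2 CPM were 7 of 10 wildtype libraries (2 and 5 to 10), 1 of 9 transgenic vehicle libraries (5) and 1 of 9 vorinostat libraries (9). Above it were wildtype 1, 3 and 4 at 5.23 to 9.58 CPM, 8 transgenic vehicle libraries at 4.54 to 12.6 CPM and 8 vorinostat libraries at 7.0 to 15.1 CPM. The boundary of 2 CPM was set after the values were seen, so no test was made of the split. The log2 fold change was 1.63 (SE 0.489, 95% interval 0.63 to 2.64, edgeR adjusted p = 0.979), with 1.33 in transgenic vehicle and 1.93 in vorinostat. It was 2.18 without wildtype 1 and 1.49 without wildtype 5. On the authors' adjusted values it was 1.07 in that table's log units (limma adjusted p = 0.00490).

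Gm26587, a processed pseudogene (ENSMUSG00000097470, chromosome 13, 67660457 to 67661445, plus strand), lies within Zfp738 on the other strand. Reads of a kit that keeps no strand cannot assign their overlap to either. The same 9 libraries were low for it, with 0.0403 to 0.176 CPM, while the other 19 held 1.46 to 4.32 CPM. Its log2 fold change was 1.74 (SE 0.546), or 2.57 without wildtype 1 and 2.88 by limma voom. Across the 28 libraries its Pearson correlation with Zfp738 was 0.970. The next highest among all genes were Dusp11, a phosphatase of RNA, at 0.695 and Gm25612 at 0.678, over libraries that share the group differences.

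**Figure D3:**
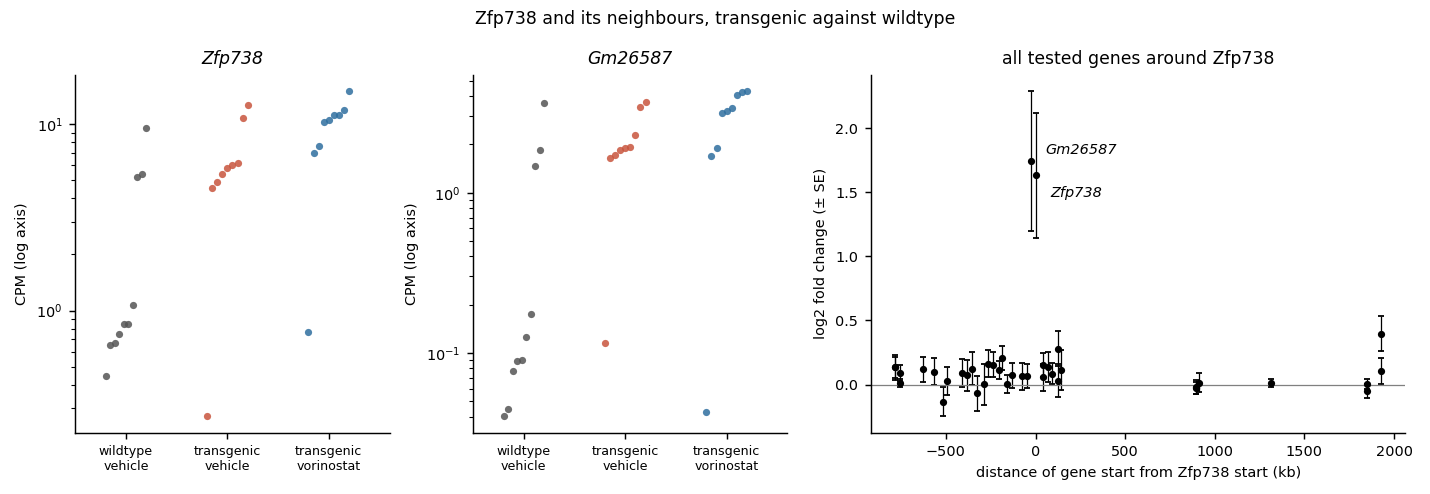
Scaled counts (CPM) by library (vertical axis, logarithmic) of Zfp738 and Gm26587 in each group, and the log2 fold change ± SE of all 38 tested genes (vertical axis) by distance of their start from that of Zfp738 in kb (horizontal axis). The 9 low libraries are apart from the 19 high ones, and the 36 other genes of the window lie between -0.13 and 0.40.

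Zfp738 stands in a cluster of zinc finger genes, and its other neighbours had far lower correlations with its levels than Gm26587. Within 2 Mb of it 38 genes were tested, itself included, and 20 of the others carry zinc finger names (Zfp and a number, with or without a letter). Apart from Gm26587, the Pearson correlations of the genes in this window with Zfp738 were at most 0.399 and the Spearman correlations at most 0.446 (both Zfp595). Their log2 fold changes ran from -0.13 (Rsl1) to 0.40 (Gm17108, SE 0.134). With both groups at equal weight, only Zfp953 of those with zinc finger names was below 0, at -0.07 (SE 0.138). Among all tested genes 50.8% were above 0. Zfp58, a zinc finger gene, was at 0.21 (SE 0.0928), Zfp65 at 0.15 (SE 0.0939) and Zfp729a at 0.06 (SE 0.0924). By group, Zfp65 was at 0.05 in transgenic vehicle and 0.26 in vorinostat, and Zfp729a at -0.04 and 0.16. In the same order, Zfp729b was at -0.11 and 0.24, Zfp748 at -0.09 and 0.23, and Zfp58 at 0.14 and 0.27. Many genes with zinc finger names were below 0 in transgenic vehicle, while in vorinostat only Zfp953 was, at -0.05. Their shift was therefore not shared by both groups. Members of this cluster are alike in sequence, and no source used here says how reads matching several of them were counted.

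On the lower side, Prkcd had the smallest p (0.00144). It encodes protein kinase C delta, which is abundant in thalamic neurons. The gene (ENSMUSG00000021948, chromosome 14, 30595354 to 30626210, minus strand) was at 9.37, 11.1 and 19.4 CPM in wildtype, at 9.07, 10.02 and 13.5 in transgenic vehicle and at 8.05, 9.08 and 11.2 in vorinostat libraries. The log2 fold change was -0.33 (SE 0.0935, 95% interval -0.52 to -0.14), and it was -0.23 without wildtype 9. Thalamic markers as a list had 5 of 6 members below 0 with a median of -0.11, and their summed level was 65.1 to 109 CPM in wildtype, 66.5 to 91.9 in transgenic vehicle and 67.7 to 99.5 in vorinostat libraries. Among them Calb2, the calcium-binding protein calretinin, was at -0.31 (SE 0.139), or -0.18 without wildtype 4, and Rora, a nuclear receptor, at 0.02 (SE 0.0878). The part of thalamic tissue in the Prkcd value was not tested.

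Slc26a8, an anion transporter known from sperm, was at 5.95, 7.28 and 8.04 CPM in wildtype, at 5.05, 5.81 and 6.85 in transgenic vehicle and at 4.83, 6.36 and 7.21 in vorinostat libraries. All 18 transgenic libraries were below the wildtype median. As a log2 fold change this was -0.20 (SE 0.0639), with -0.24 in transgenic vehicle and -0.16 in vorinostat. Mtg2, a GTPase of mitochondrial ribosome assembly, was at 14.1, 14.9 and 16.5 CPM in wildtype, at 12.4, 14.2 and 15.2 in transgenic vehicle and at 12.8, 13.6 and 14.5 in vorinostat libraries. On the log2 scale it differed by -0.12 (SE 0.0378), and 12 of 18 transgenic libraries were below the lowest wildtype value. Amdhd2, which acts on N-acetylglucosamine phosphate in the hexosamine pathway, was at -0.17 (SE 0.0570), with 13 of 18 libraries below the wildtype minimum, or -0.10 with surrogate variables as covariates.

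Rasip1, a Ras-interacting protein of blood vessel lining, was at 3.73, 5.28 and 7.12 CPM in wildtype, at 3.79, 4.46 and 5.08 in transgenic vehicle and at 3.98, 4.54 and 5.70 in vorinostat libraries. On the log2 scale the difference was -0.24 (SE 0.0774), with -0.24 and -0.23 in the groups, and no transgenic library lay below the wildtype minimum. C1s1, a protease of the complement cascade, was at -0.53 (SE 0.181), from 0.269 to 0.652 CPM in wildtype and 0.0920 to 0.509 CPM in transgenic libraries. With surrogate variables it was -0.29. Bcdin3d, an RNA methyltransferase, was at -0.23 (SE 0.0724), and Trmo, a methyltransferase of transfer RNA, at -0.22 (SE 0.0772). The noncoding genes Gm32391 and Gm45441 were at -0.20 (SE 0.0693) and -0.26 (SE 0.0870), and Ccdc87 at -0.20 (SE 0.0690).

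For Necab2 the vorinostat libraries lay farther from wildtype than the vehicle libraries. Necab2, a calcium-binding protein that marks CA2 neurons, was at -0.12 in transgenic vehicle and -0.32 in vorinostat, with -0.20 (SE 0.0888, edgeR adjusted p = 0.345) between them. Its levels were 60.5, 76.3 and 103 CPM in wildtype, 62.6, 69.1 and 86.8 in transgenic vehicle and 44.2, 64.4 and 76.7 in vorinostat libraries. CA2 markers as a list had 5 of 6 members below 0 with a median of -0.11. That median was -0.03 in transgenic vehicle and -0.27 in vorinostat, and 3 of the 6 members were lower in both groups. With surrogate variables as covariates the difference over all transgenic libraries was -0.09 for Necab2, against -0.22 without.

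The gene lists were read beside all 17009 genes, of which 50.8% were above 0 and 49.2% below it, with a median log2 fold change of 0.00155. By edgeR on the counts no list member passed adjustment over all genes, and all list values are descriptions. On the authors' adjusted values limma called Adm, Kat2b, Hdac8, Dnajc3, Pdia4 and Alas2 higher and Fibcd1 and Mpped1 lower among the list members named here (adjusted p 0.000612 to 0.0396). Over all genes of that table it called 1281 of 18014. The members were chosen by their p in counts of the same libraries, so these calls are no separate support. The unfolded protein response, which raises chaperones when proteins misfold in the endoplasmic reticulum, had a median of 0.03, with 18 of 28 tested members above 0. Dnajc3, a co-chaperone, was at 53.1, 57.6 and 65.0 CPM in wildtype, at 55.0, 62.2 and 68.7 in transgenic vehicle and at 58.0, 66.1 and 76.0 in vorinostat libraries, a log2 fold change of 0.14 (SE 0.0460). The chaperone Hspa5 (BiP), which senses misfolded proteins, was at 0.15 (SE 0.0602) and the disulfide isomerase Pdia4 at 0.13 (SE 0.0506). Chac1, which degrades glutathione, was at -0.10 (SE 0.0690) and Sesn2, a sensor of amino acids, at -0.08 (SE 0.0592). Hspa5, named after its value was seen, Dnajc3 and Pdia4 were the 3 members higher at an unadjusted p under 0.05, and 0 were lower, beside 1.55% and 1.31% of all genes.

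Immediate early genes, which neurons transcribe within minutes of firing, had 22 of 26 members above 0. Their median was 0.08 over all transgenic libraries, 0.15 in transgenic vehicle and 0.06 in vorinostat, and 0.14 over all without the 4 libraries of high mitochondrial share. Fos was at 3.57, 6.39 and 13.1 CPM in wildtype, at 5.11, 10.9 and 17.5 in transgenic vehicle and at 4.46, 7.19 and 22.3 in vorinostat libraries. This amounted to 0.60 on the log2 scale (SE 0.277). The zinc finger factor Egr2 was at 0.926, 1.88 and 3.20 CPM in wildtype libraries. It was at 1.14, 2.31 and 7.65 CPM in transgenic vehicle and at 1.20, 1.79 and 9.52 CPM in vorinostat libraries. Its log2 fold change was 0.78 (SE 0.333), or 0.53 without vorinostat 4. On the authors' adjusted values the difference for Egr2 was 0.08 in that table's log units. The same 6 libraries, transgenic vehicle 1, 2 and 8 and vorinostat 1, 2 and 4, were above every wildtype library for Fos and for Egr2. The other 12 transgenic libraries lay inside the wildtype range for both. Jun, the partner of Fos, was at -0.06 (SE 0.0735) and Nptx2, a synaptic pentraxin, at -0.06 (SE 0.116).

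**Figure D4:**
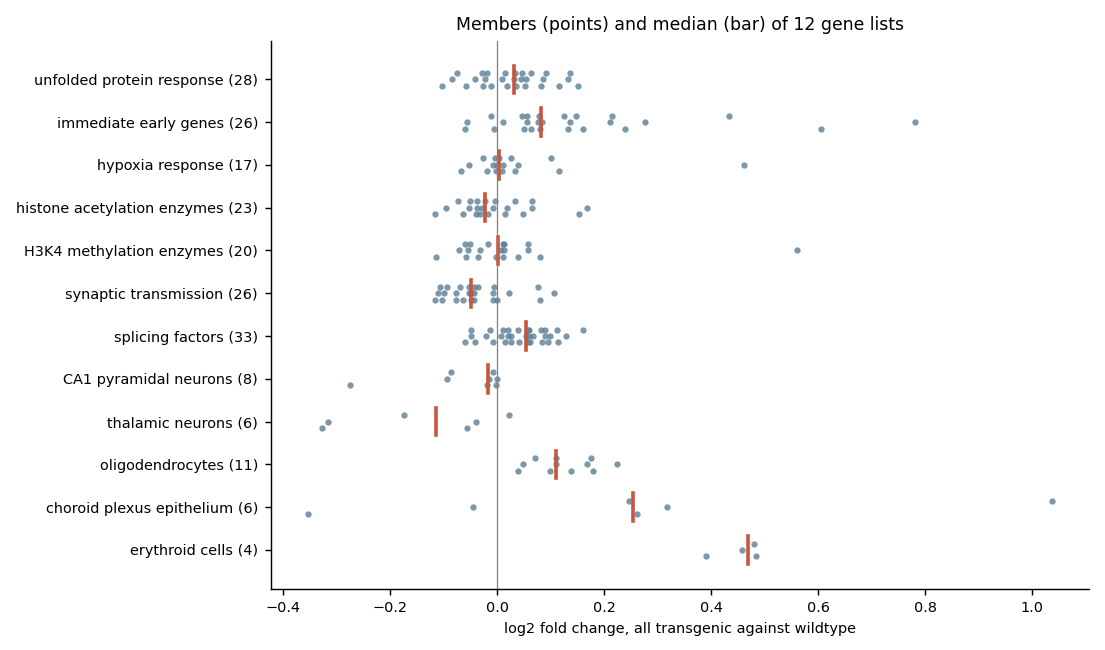
Log2 fold change of all transgenic against wildtype libraries (horizontal axis) for each tested member (points) of 12 gene lists (vertical axis, members tested in brackets), with the median as a bar. Medians lie between -0.11 for thalamic and 0.47 for erythroid markers, and all 11 oligodendrocyte and all 4 erythroid points are above 0.

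The hypoxia list, which holds Adm, did not follow that gene. Its members had 10 of 17 above 0 and a median of 0.0045. Beside Adm, the collagen hydroxylase P4ha1 was at 0.12 (SE 0.0506), while the hexokinase Hk2 was at -0.07 (SE 0.0711) and the glucose transporter Slc2a1 at -0.05 (SE 0.0882). Without wildtype 2 Slc2a1 was at -0.12, and without wildtype 5 at -0.02. Histone acetylation enzymes, which are deacetylases and the enzymes opposing them, had 8 of 23 above 0 and a median of -0.02, or 0.01 without the 4 libraries. Besides Kat2b, the deacetylase Hdac8 was at 10.5, 11.4 and 13.1 CPM in wildtype, at 10.4, 12.2 and 14.7 in transgenic vehicle and at 11.7, 12.5 and 14.8 in vorinostat libraries, a log2 fold change of 0.15 (SE 0.0528). The deacetylases Hdac9 and Hdac11 were at -0.12 (SE 0.0637) and -0.05 (SE 0.0375). Enzymes that set or remove methyl groups on histone H3 lysine 4 had 10 of 20 above 0 and a median of 0.0023. Rbbp5, a core subunit of the methyltransferase complexes, was at 0.06 (SE 0.0378) and the demethylase Kdm5a at 0.06 (SE 0.0462), with the subunit Men1 at -0.07 (SE 0.0654) and the methyltransferase Kmt2b at -0.11 (SE 0.116). Kdm5a was at 0.02 without wildtype 5, and Kmt2b at -0.18 without wildtype 2. Without the 4 libraries of high mitochondrial share Kdm5a was at 0.04, Men1 at -0.03 and Kmt2b at -0.04. Leaving out wildtype 2 put Men1 at -0.11, and leaving out vorinostat 7 put it at -0.05 and Kmt2b at -0.08.

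Genes of synaptic transmission and of splicing leaned in opposite directions by small amounts. Of the synaptic genes 21 of 26 were below 0, with a median of -0.05, or -0.02 without the 4 libraries. The vesicle proteins Vamp2 and Syn2 were at -0.10 (SE 0.0496) and -0.11 (SE 0.0622), and the glutamate receptor subunit Gria3 at 0.08 (SE 0.0538). Splicing factors were above 0 in 26 of 33, with a median of 0.05, or 0.02 without the 4. The kinases of splicing proteins Prpf4b and Clk4 were at 0.11 (SE 0.0501) and 0.13 (SE 0.0624), and the spliceosome proteins U2af2 and Snrnp70 at -0.06 (SE 0.0473) and -0.05 (SE 0.0473). For both lists the median was nearer 0 in transgenic vehicle (-0.02 and 0.01) than in vorinostat (-0.09 and 0.10), and 3 of the 4 libraries of high mitochondrial share are vorinostat libraries. Their part in these medians was not tested further.

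Markers of cells other than CA1 pyramidal neurons were measured alongside. CA1 markers had 7 of 8 members below 0 and a median of -0.02, with Fibcd1 at -0.27 (SE 0.179), Mpped1 at -0.09 (SE 0.0552) and Gpr161 at 0.00 (SE 0.0981). Oligodendrocyte markers, genes of myelin-forming cells, were above 0 in 11 of 11, with a median of 0.11 (0.15 in transgenic vehicle and 0.11 in vorinostat). Ugt8a, which makes a myelin lipid, was at 30.7, 41.9 and 52.8 CPM in wildtype, at 30.8, 44.1 and 70.4 in transgenic vehicle and at 36.4, 44.5 and 67.0 in vorinostat libraries. Its log2 fold change was 0.18 (SE 0.104), and that of the myelin protein Ermn was 0.22 (SE 0.133). With surrogate variables as covariates they were 0.0048 and -0.01. The summed oligodendrocyte level was 3542 to 6253 CPM in wildtype, 3964 to 8031 in transgenic vehicle and 4343 to 7803 in vorinostat libraries, so the groups overlapped over most of their range. Its median was 5029 CPM in wildtype, 5717 in transgenic vehicle and 4895 in vorinostat libraries. By that median the vorinostat group was below wildtype.

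Choroid plexus markers had 4 of 6 tested members above 0, of 8 listed, with a median of 0.25. Ttr, the thyroid hormone carrier made by this epithelium, was at 1.74, 10.7 and 25.1 CPM in wildtype, at 5.92, 13.4 and 43.7 in transgenic vehicle and at 1.66, 10.8 and 91.1 in vorinostat libraries. Against wildtype this was 1.04 on the log2 scale (SE 0.498), or 0.74 without vorinostat 5, which held the 91.1 CPM. Kl, the ageing-related hormone receptor partner klotho, was at 0.25 (SE 0.136), while the prolactin receptor Prlr was at -0.35 (SE 0.219) and Sostdc1, a secreted antagonist of bone morphogenetic proteins, at -0.04 (SE 0.155).

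Blood transcripts had the largest median of the lists. Erythroid genes were above 0 in 4 of 4 tested members, of 5 listed, with a median of 0.47, and that median was 0.01 in transgenic vehicle and 0.89 in vorinostat. Alas2, which starts the making of heme in red cell precursors, was at 1.36, 1.85 and 4.80 CPM in wildtype, at 1.01, 2.35 and 2.94 in transgenic vehicle and at 2.90, 3.20 and 6.34 in vorinostat libraries. Its log2 fold change was 0.48 (SE 0.183), with 0.81 (SE 0.209, edgeR adjusted p = 0.345) between the transgenic groups. Hbb-bt, a beta globin gene whose reads near-identical globin genes may share, was at 0.48 (SE 0.243), or 0.83 without wildtype 2. The median erythroid fold change was 0.56 without the 4 libraries.

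Summed hemoglobin was 47.0 ± 28.5 CPM in transgenic (SD, n = 18) and 32.7 ± 24.5 CPM in wildtype libraries (SD, n = 10), a difference of 14.4 CPM that did not pass (permutation p = 0.196). Medians were 24.3 CPM in wildtype, 34.1 in transgenic vehicle and 43.8 in vorinostat libraries. Wildtype 2, at 101 CPM, was the highest wildtype library, and vorinostat 6, 7 and 9 were the highest of theirs. Without these 4 libraries the means were 36.0 ± 8.75 CPM (SD, n = 15) and 25.0 ± 4.61 CPM (SD, n = 9), a difference of 11 CPM with a permutation p of 0.00212. That comparison was added after the data were seen. Leaving out wildtype 2 lowers the wildtype mean and SD, and leaving out vorinostat 6, 7 and 9 lowers those of the transgenic libraries. Over all libraries the mean was 32.7 CPM in wildtype, 32.8 in transgenic vehicle and 61.3 in vorinostat.

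**Figure D5:**
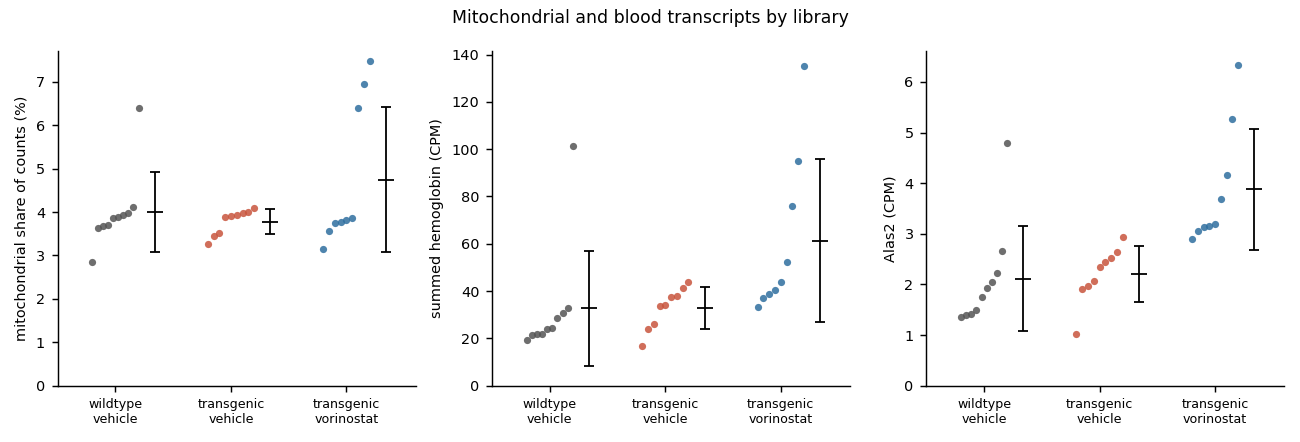
Mitochondrial share of counts (%), summed hemoglobin (CPM) and Alas2 (CPM) by library (vertical axes, linear from 0) in each group (horizontal axes); points are libraries and bars the mean ± SD of 10, 9 and 9 libraries. 1 wildtype and 3 vorinostat libraries stand apart in mitochondrial share and hemoglobin, and all 9 vorinostat libraries are above the wildtype median for Alas2.

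Over the other 25 lists, which held 340 tested members, medians lay between -0.11 (CA2 markers) and 0.11 (fibroblast markers), and 5 members had an unadjusted p under 0.05, where 2.85% of all genes did. Named after their values were seen, these were the DNA topoisomerase Top2a at 0.38, the cystine transporter Slc7a11 at 0.17, the cholesterol enzyme Sc5d at 0.13, the hedgehog co-receptor Cdon at -0.11, and Necab2.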

How the data were processed

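Polyadenylated RNA of 28 CA1 samples was sequenced as single reads of 50 bp with a library kit that keeps no strand, per the labels' protocols. The deposited gene counts are whole reads per gene and sample. The submitters' processing notes name FastQC 0.11.5, STAR 2.5.2b, featureCounts of Subread 1.5.1 and the mm10 genome. The annotation release and strand setting are not given in the sources used here. Besides the counts, the deposited adjusted table holds a score per gene and sample, made by the authors with a mixed linear model of unstated terms and log base.

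Samples were grouped by title. The members and gene lists were chosen with earlier results of these data known. Of 48709 genes, 48349 (99.3%) matched a GENCODE M21 symbol, and those passing filterByExpr (minimum count 10, minimum total 15) were scaled by TMM and fitted with edgeR 4.0.16 (R 4.3.3), quasi-likelihood, 3 groups and no covariate. All transgenic against wildtype is the mean of both transgenic groups minus wildtype. P-values were adjusted over all genes by Benjamini-Hochberg, with a threshold of 0.05. Shifts in both groups used the larger of the p-values. Named genes were Camk2d, then the 12 genes in each direction with the smallest p and the same sign in both groups, the 5 in each direction with the smallest larger p, and, in each list described, the 2 members in each direction with the smallest p. Hspa5, the genes around Zfp738, Dusp11 and the single genes of the lists given last were named after their values were seen. Items met by the rule but not named are not reported here. Library measures were compared by two-sided permutation tests of 100000 resamples, chosen after the data were seen where the 4 libraries were left out. Alternatives were DESeq2 1.42.0, limma 3.58.1 (voom, and the adjusted table), sva 3.50.0, other filters, covariates, blocks and libraries left out. The edgeR script was tested on simulated data. Total counts were 20230085 to 33191857, and the median SE of a log2 fold change was 0.0740. Of 117 sample pairs within groups, 0 held identical values.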

Additional observations from a re-analysis of the deposited data

Results flagged for a closer look

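Among 201 groups of libraries checked for a value far from the rest of its group, 25 were found, where about 1 in 20 groups is due by chance. For genes the distance was judged on log2 CPM.

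Zfp738 was low in transgenic vehicle 5 (0.271 CPM) and vorinostat 9 (0.770 CPM), each far below the other libraries of its group, and Gm26587 was low in the same libraries (0.116 and 0.0428 CPM).

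Wildtype 2 stood apart most often. Its mitochondrial share was 6.41% and its summed hemoglobin 101 CPM, and the blood genes Alas2 (4.80 CPM) and Hbb-bt (12 CPM) were the highest of their group there. Hdac8 was also highest in wildtype 2 (13.1 CPM), and Kmt2b (57.4 CPM), Men1 (49.3 CPM), Sesn2 (23.2 CPM), Slc2a1 (38.6 CPM), Syn2 (515 CPM) and U2af2 (58.2 CPM) were lowest there. The part of the mitochondrial share in these values was not tested.

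The other values far from their group were spread over several libraries. Alas2 was low in transgenic vehicle 7 (1.01 CPM), which also had the lowest summed hemoglobin. Prkcd was high in transgenic vehicle 3 (13.5 CPM) and Rasip1 in vorinostat 5 (5.70 CPM). Prpf4b was low in wildtype 5 (85.8 CPM) and transgenic vehicle 5 (90.7 CPM), and Kdm5a was low in wildtype 5 (48.3 CPM), the library with the highest total (33191857 counts). Syn2 (513 CPM) and U2af2 (62.9 CPM) were low in transgenic vehicle 6, and Rbbp5 was high in wildtype 4 (56.4 CPM).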

How the results depend on the processing

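The count of 0 genes for all transgenic against wildtype was also found in 11 of 12 other settings and with each of the 28 libraries left out (0 to 0), with 408 to 1321 genes at an unadjusted p under 0.05 in those 11 and 348 to 990 with a library left out. The exception was limma on the authors' adjusted values, with 1281, and the cause was not tested. For both transgenic groups the count was 0 in 10 of 11 settings and 9 on the adjusted values. Between the transgenic groups it was 1 by DESeq2, 3 with Xist as a covariate and 40 on the adjusted values, and 0 to 1 with a library left out (1 without vorinostat 3). With the replicate number as a block the count was 0 (813 genes at an unadjusted p under 0.05 by the numbers in the titles, 470 by those in the descriptions), and 65 and 35 genes had both p-values under 0.05. The labels do not say that the numbers pair the samples, and this was not settled here. Correlations of same-numbered samples were over 0.1 in 7 of 27 pairs by title (median 0.0598, against -0.0137 for other numbers). By description they were over 0.1 in 7 of 26 pairs (median 0.0459, against -0.0102 for other numbers). Without the 4 libraries of high mitochondrial share the differences were -0.00255 percentage points in that share and 11 CPM in hemoglobin, settings chosen after seeing the data. Of the genes named for their p and Camk2d, 0 of 722 values with a library left out changed sign. In other settings 1 of 309 did, Camk2d at 0.284 in the log units of the adjusted values. Camk2d aside, those genes were picked for small p in the same libraries. A change of sign was therefore unlikely from the start, and its absence is no support for them. Among 38 other list members, 19 of 1064 and 15 of 456 values changed sign. On the adjusted values these were Hk2 (0.0068), Gpr161 (-0.128) and Sostdc1 (0.0920), in that table's log units. With surrogate variables they were Jun (0.0641), Nptx2 (0.0349), Gpr161 (-0.0141), Rora (-0.043) and Ermn (-0.0133). Nptx2 was 0.00117 without the 4 libraries. Gpr161, near 0 throughout, was -0.00183 by DESeq2, -0.00249 by voom, -0.00114 unfiltered, -0.00105 at a mean CPM of at least 1, -0.0216 with Xist and -0.00115 with the block by descriptions. With a library left out, Nptx2 ranged from -0.112 to 0.00599, Gpr161 from -0.0523 to 0.0418, Rora from -0.0304 to 0.0520 and Sostdc1 from -0.0883 to 0.0717. List medians that changed sign without the 4 libraries were histone acetylation (0.0128), oxidative phosphorylation (-0.014), mitochondrially encoded (-0.0115), ribosomal proteins (-0.0338), interferon-stimulated (-0.0209), hedgehog (0.00891), DNA methylation and chromatin remodelling (0.00854), CA1 (0.00597), dentate (-0.0084), striatal (0.0102), oligodendrocyte precursors (0.015) and endothelial cells (-0.00584), with no cause tested. Low counts limit the precision for genes near or below 1 CPM, such as Clec4a3 (SE 0.209), C1s1 (SE 0.181) and Gm27616 (SE 0.170).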
